A study of Mus musculus with 6 samples.

Results

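Small nucleolar RNA genes are taken here as the rows of the expression table whose symbol starts with Snord (box C/D class) or Snora (box H/ACA class). There were 110 such genes among 24421 gene rows, 74 Snord and 36 Snora, and 80 of the 110 had at least 1 read in any library. The data were 6 RNA-seq libraries from 3 murine pancreatic ductal adenocarcinoma cell lines, 2838c3, 6419c5 and 6499c4, which came from the Stanger Lab and were used at passages 15 to 20. In each line 1 library came from cells given DMSO (vehicle) and 1 from cells exposed over 16 hours to G-1 at 250 nM, a small molecule that activates GPER, the membrane oestrogen receptor. A treatment group therefore held 3 libraries, 1 per line, and no treatment was repeated within a line. The labels name no further allele, agent or host, and all libraries share the medium, the column purification of total RNA and the NEBNext Ultra library kit. A line compared with another rests on 2 libraries each. P-values between treatments rest on the spread between these 3 lines (2 residual degrees of freedom). In the fit that spread is moderated towards the spread of genes at a like level (5.35 prior degrees of freedom). In such bulk libraries, fewer cells with an RNA and less RNA per cell cannot be told apart.

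Small nucleolar RNAs are short, stable RNAs that guide the chemical modification of ribosomal RNA in the nucleolus. Box C/D RNAs bind fibrillarin and direct ribose methylation, and box H/ACA RNAs bind dyskerin and direct pseudouridylation. In mammals most of them lie inside longer host genes, many of which encode ribosomal proteins or are non-coding Snhg genes, and they are released from the spliced introns. RNA purified on silica columns holds little of such short RNA, and libraries from fragmented total RNA capture it poorly. The part of these steps in the values was not tested.

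The genes had few reads. Whole reads, recovered from the equal steps of the deposited FPKM values (read density along a gene, scaled by library), numbered 2270 for all 110 genes over the 6 libraries. Box C/D genes took 1315 of these reads and box H/ACA genes 955. A library held between 5455991 and 8890822 reads in genes, so that a count of 0 allowed up to 3 reads, or 0.337 to 0.55 RPM (reads per 1000000 reads in genes). Of 7 markers of ductal epithelium, among them Krt19 and Epcam, all were above 0, with a summed level of 3419 to 5961 FPKM per library. Markers of acinar and islet cells were at 0 (3 of 3 each), those of fibroblasts summed to 0.405 to 1.33 FPKM with Col1a2, Dcn and Lum at 0, those of endothelium to 0.020 to 1.58 FPKM, and those of leukocytes to 0.788 to 3.36 FPKM.

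The G-1 library of 6499c4 stood apart from the other 5 in some measures of these genes. Among the 52 small nucleolar RNA genes with at least 10 reads in all, 19 had their highest FPKM in that library, against 5 to 10 in each of the others. Among the 23 with at least 30 reads it was 6, against 2 to 5. Both filters count the reads of that library too, so genes high in it pass more easily. Snord70, for one, had 10 of its 11 reads there. The G-1 library of 6499c4 also held 11 genes at 0 that had at least 3 reads in the vehicle library of the same line, against 3 in 2838c3 and 2 in 6419c5. Of the 52, however, 6 were at 0 in it and 6 or 7 in each library of the other lines, while the vehicle library of 6499c4 had 1 at 0. Across those 52 genes, Spearman's rho between vehicle and G-1 reads was 0.28 in 6499c4, 0.50 in 2838c3 and 0.63 in 6419c5, as a description of genes that share a library pair. Rmrp and Rpph1, the RNA subunits of the RNases MRP and P, had 13 reads each in that library and 0 to 5 in any other. Some results that rest on it, such as the class sums between lines, are therefore also given without 6499c4 or from the vehicle libraries alone. Others, among them the summed ratios of single members, are not.

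Members that carry the results are shown as GENCODE M21 gives them (GRCm38), 5′ to 3′. For box C/D genes capitals mark box C, sought as TGATGA in the first 20 bases, and box D, sought as the last CTGA in the last 20 bases. For box H/ACA genes capitals mark an ACA placed 3 bases before the end. The first 3 are the box C/D genes with the most reads, followed by Snord104, which went opposite ways in the lines. Then come Snora65, the box H/ACA gene with the most reads, Snora61 and Snora81, 1 of the 2 members that passed the test for G-1.
Snord12: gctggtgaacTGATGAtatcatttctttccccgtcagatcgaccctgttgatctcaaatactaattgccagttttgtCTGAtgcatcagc
Snord22: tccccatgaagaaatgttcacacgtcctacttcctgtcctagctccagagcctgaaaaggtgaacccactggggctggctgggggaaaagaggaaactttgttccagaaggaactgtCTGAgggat
Snord47: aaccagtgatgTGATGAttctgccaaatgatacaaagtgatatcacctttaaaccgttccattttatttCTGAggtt
Snord104: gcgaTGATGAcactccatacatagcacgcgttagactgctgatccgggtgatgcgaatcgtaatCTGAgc
Snora65: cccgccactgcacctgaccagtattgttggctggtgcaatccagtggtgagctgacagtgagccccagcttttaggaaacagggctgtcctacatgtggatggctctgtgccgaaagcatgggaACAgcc
Snora61: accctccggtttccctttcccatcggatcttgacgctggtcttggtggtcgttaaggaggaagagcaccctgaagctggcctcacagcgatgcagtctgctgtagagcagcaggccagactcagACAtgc
Snora81: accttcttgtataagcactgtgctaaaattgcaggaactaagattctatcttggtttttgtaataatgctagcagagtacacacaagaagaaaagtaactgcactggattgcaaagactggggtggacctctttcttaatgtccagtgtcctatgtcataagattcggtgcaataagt

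Snord12 lies at chr2:167065276-167065365 on the plus strand, Snord22 at chr19:8725866-8725991 on the plus strand, and Snord47 at chr1:161038082-161038158 on the plus strand. Snord104 lies at chr11:106500993-106501062 on the plus strand, and Snora65 at chr2:32963291-32963420 on the plus strand. Snora61 lies at chr4:132310240-132310369 on the plus strand and Snora81 at chr16:23110756-23110933 on the plus strand. The boxes follow the classes: on the given strand, TGATGA was found in 71.4% of 98 Snord transcripts of at least 40 bases and in 0.0% of 42 Snora transcripts, and CTGA in 98.0% and 11.9%. The ACA was found in 83.3% of Snora and 0.0% of Snord transcripts. Over all 1557 snoRNA transcripts of GENCODE, the shares were 21.3% for TGATGA, 34.7% for CTGA and 19.3% for ACA. Snord22 holds a CTGA but no TGATGA in its window, and Snora81 has no ACA at that place, which says only that these letters are not there.

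Detection was partial in both classes. Reads were present for 50 of 74 box C/D genes (67.6%) and for 30 of 36 box H/ACA genes (83.3%). Of the 80 genes with reads, 32 had them in every library and 8 in 1 library only, and 23 had at least 30 reads in all. Box H/ACA genes are longer, with a median of 119.5 bases against 68 for box C/D in the RefSeq lengths. Over the 80 genes with reads, however, Spearman's rho between length and reads was 0.11, given as a description. The 30 genes at 0 included all 3 Snord116 genes and Snord64 of the imprinted Prader-Willi cluster, which are known for expression in neurons, and Snord118, the U8 RNA of large-subunit ribosomal RNA processing. A count of 0 here means fewer reads than the limit above, not an absent RNA.

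The number of genes with reads, vehicle before G-1, was 57 and 59 for 2838c3, 57 and 52 for 6419c5, and 65 and 54 for 6499c4. Thinned to the depth of the smallest library, the expected numbers were 51.0, 52.5, 52.6, 52, 59.6 and 52.9 in the same order. The vehicle library of 6499c4 was thus highest, and the other 5 lay within 2 genes of one another at equal depth. Snora30, Snord70, Snord8 and Snord88c had reads in 6499c4 and 0 in the 4 libraries of the other lines. Of these, Snord70, which lies in an intron of the box C/D core protein gene Nop58, had 1 read with vehicle and 10 with G-1, and Snord8 had 8 reads, all with G-1. Another 4 genes had reads in 2838c3 alone and 2 in 6419c5 alone, each with 1 read.

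The box C/D genes had their highest summed abundance in 6499c4, and the box H/ACA genes did not share that order. With vehicle and with G-1, box C/D genes summed to 25.3 and 20.5 RPM for 2838c3, to 26.75 and 26.6 RPM for 6419c5, and to 32.8 and 39.3 RPM for 6499c4. Box H/ACA genes summed to 19.9 and 23.5, 22.04 and 18.7, and 18.4 and 20.8 RPM. Both 6499c4 libraries thus exceeded the other 4 for box C/D, while for box H/ACA the vehicle library of 6499c4 was the lowest of the 6. The plot of class sums by library shows both classes with their counting intervals.

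**Figure D1:**
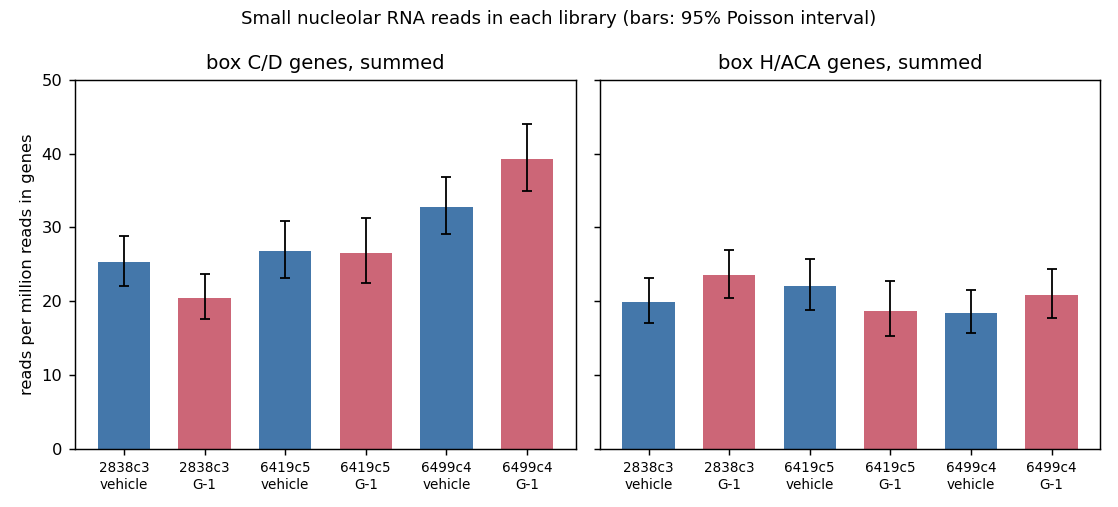
Summed reads of box C/D (left) and box H/ACA (right) small nucleolar RNA genes in RPM, linear axis from 0, in the 6 libraries (blue vehicle, red G-1). Error bars are 95% Poisson intervals for counting error only. Box C/D reached 32.8 and 39.3 RPM in 6499c4 and 20.5 to 26.75 RPM elsewhere.

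Box C/D genes held 51.4% of the small nucleolar RNA reads in 2838c3 (95% exact binomial interval 47.8 to 55.0%), 56.4% in 6419c5 (52.4 to 60.4%) and 64.7% in 6499c4 (61.4 to 67.8%). The interval of 6499c4 did not meet those of the other lines over both treatments. In the vehicle libraries alone the shares were 55.97% (50.96 to 60.9%), 54.8% (49.5 to 60.1%) and 64.0% (59.3 to 68.5%), and there the interval of 6499c4 met both others. Without Snord104 the shares over both treatments were 51.1% (47.5 to 54.7%), 55.6% (51.5 to 59.68%) and 63.0% (59.62 to 66.2%), so that the intervals of 6499c4 and 6419c5 met. On the deposited scale the box C/D sum of 6499c4 was 1.42 times that of 2838c3 (1.25 to 1.62) over both treatments. In the vehicle libraries alone that ratio was 1.17 (0.976 to 1.40), and in the G-1 libraries 1.77 (1.46 to 2.14). The box H/ACA ratio was 0.822 (0.706 to 0.957), with 0.834 (0.669 to 1.04) in vehicle and 0.818 (0.6595 to 1.013) in G-1 libraries. Against 6419c5 the box C/D ratio of 6499c4 was 1.25 (1.09 to 1.43), with 1.14 (0.942 to 1.37) in vehicle libraries. The box H/ACA ratio against 6419c5 was 0.882 (0.746 to 1.043), with 0.775 (0.618 to 0.972) in vehicle and 1.04 (0.804 to 1.35) in G-1 libraries. The intervals cover counting error only and are no test between lines.

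Per length, Snord12 and Snora65 were the most abundant members. Levels are compared between genes in FPKM, with the mean, SD and n = 6 libraries, and only for genes whose length in the table could be matched. Snord12, a box C/D RNA in the non-coding host gene Zfas1, averaged 44.4 ± 16.9 FPKM (SD, n = 6), and Snora65, in the ribosomal protein gene Rpl12, 41.1 ± 7.95 FPKM. Snord47, in the growth-arrest RNA Gas5, averaged 29.95 ± 14.7 FPKM and Snord22, in the non-coding gene Snhg1, 29.9 ± 4.31 FPKM. Next came Snord52 at 25.9 ± 7.01 FPKM and Snora61 at 23.8 ± 12.7 FPKM. Neighbours in this order differed by less than the SD of either, except that Snora65 lay above Snord47 by more than its own SD and less than that of Snord47. By mean FPKM, Snord12 ranked 1993 among all 24421 genes, and Snora65 ranked 2161. The order depends on the lengths used: RefSeq gives Snora61 62 bases where GENCODE gives 130, and GENCODE was the longer for 86 of 108 members with both lengths, by up to 76 bases.

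**Figure D2:**
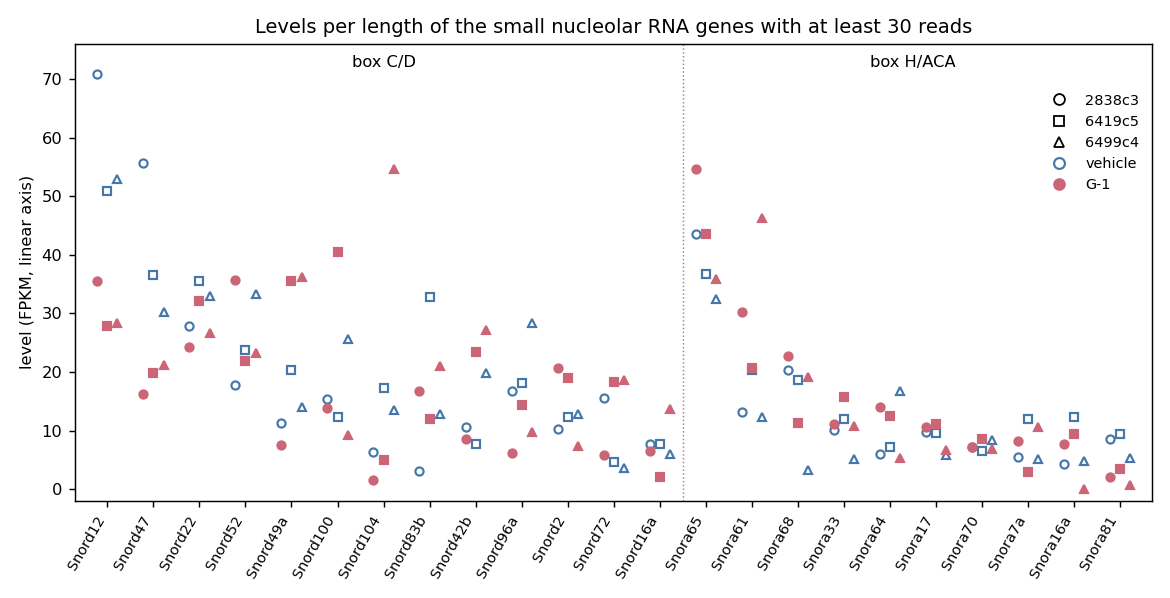
Level of the 23 small nucleolar RNA genes with at least 30 reads in each of the 6 libraries (FPKM, linear axis), by class and then by mean level; the marker shape gives the line, open blue is vehicle and filled red is G-1. The 3 vehicle points of Snord12 lie above its 3 G-1 points, and the G-1 library of 6499c4 holds the highest point of Snord104.

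The kind of host gene went with the number of reads. Ribosomal protein genes held 34 members, of which 33 had reads, together 1009 reads (44.45% of the reads of all members). Non-coding host genes held 28 members, 20 with reads, together 879 reads (38.7%). Other protein-coding genes held 45 members, 26 with reads, together 325 reads (14.3%). For 3 members no longer gene was found around them, among them Snord104 with 57 reads. The reads of the non-coding hosts were much lower than those of the ribosomal protein genes, with medians of 732.5 and 30350 reads over the 6 libraries, so members and hosts did not rank alike. Spearman's rho between host and member FPKM over 107 members was 0.39, a description in which members of 1 host share their host value.

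Members that overlap an annotated exon of their host held most of the reads. An exon of any GENCODE transcript of the host, retained introns included, overlapped 49 members, of which 40 had reads, together 1665 reads (73.35%) with a median of 18. The 54 members that lay in introns alone included 36 with reads, together 461 reads (20.3%) with a median of 2.5. The median host reads of both sets were close, at 13300 and 12760. Within each host kind the same order held: medians were 32 and 9 reads in ribosomal protein genes, 25 and 2 in non-coding genes, and 8 and 1 in other coding genes. The sources used here give neither the authors' rule for reads in overlapping genes nor their use of strand, so a read counted for such a member may come from its host transcript.

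**Figure D3:**
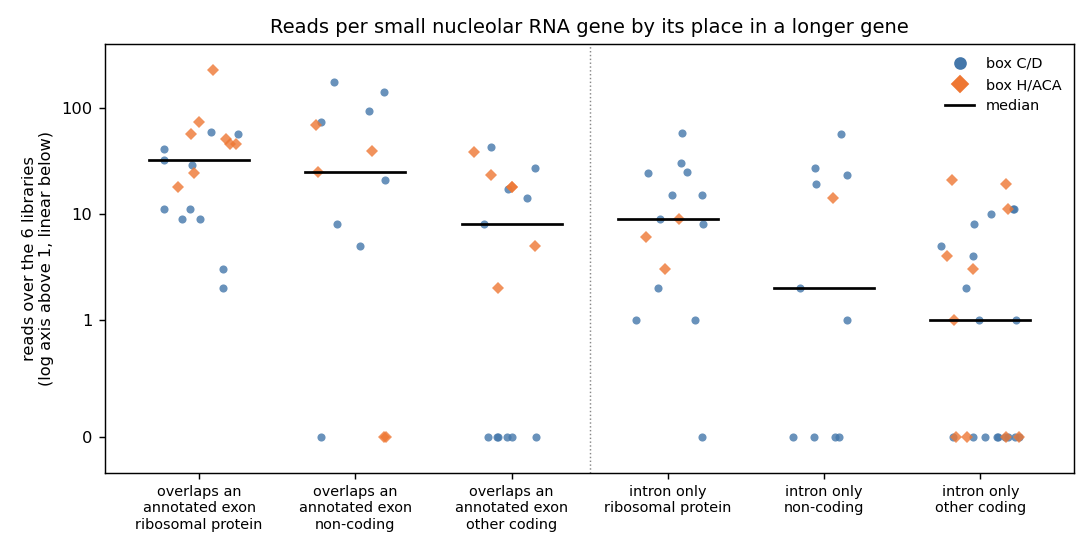
Reads over the 6 libraries of the members in 3 kinds of host gene (log axis above 1 read, linear below), split by whether the member overlaps an annotated host exon; each point is 1 gene, blue circles are box C/D, orange diamonds box H/ACA and black lines medians. The medians are 32, 25 and 8 reads with exon overlap and 9, 2 and 1 in introns alone.

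With G-1, 2 members passed the test and both were lower. They were Snord12 and Snora81, a box H/ACA RNA in the translation factor gene Eif4a2, out of 65 members that reached the level filter (mean of at least 1 FPKM). Among all 10748 genes at that level, 3 were called (0.0279%), 1 higher (0.0093%) and 2 lower (0.0186%). Of the 65, 42 had under 30 reads in all and some had as few as 3, and 20 had an unadjusted p under 0.05, against 10.1% of all genes. The median log2 difference was 0.03 for the 65 members and -0.0063 for all genes, and it was 0.12 for the 41 box C/D and -0.0059 for the 24 box H/ACA members. In 2 of the 65 a treatment group was wholly at 0, and setting these to a bound of 3 reads left the median at 0.03. Without 6499c4, 8 members were called, 3 higher and 5 lower, among 11 of all 10748 genes (6 higher and 5 lower), and Snord12, Snora81 and Snord104 were among the lower ones. Without 6419c5 the count of members was 0, and without 2838c3 it was 3, with Snord12 among them. Over all genes, the count with 1 line left out lay between 0 and 11.

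Snord12 had 40 reads with vehicle and 20 with G-1 in line 2838c3, then 24 and 10 for 6419c5, then 32 and 15 for 6499c4. All 3 G-1 libraries lay below all 3 vehicle libraries. The ratios on the deposited scale were 0.501, 0.547 and 0.535, and the reads summed over lines gave 0.530 (0.363 to 0.762). Its host Zfas1 had 647 and 677, 534 and 402, and 473 and 427 reads, or ratios of 1.05, 0.988 and 1.03 on the same scale. The host ratios thus lay near 1 in the lines where the Snord12 ratios lay near 0.5. All 66 RefSeq bases of Snord12 lie in an annotated Zfas1 exon, so reads counted for it may come from a host transcript. Which RNA gave them was not tested. The log2 difference of Snord12 was -0.90 with an SE of 0.06 (adjusted p = 0.00656 by limma, Benjamini-Hochberg). Counting error alone gives the log2 ratio of its reads an SE of 0.27.

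Snora81 had 12 and 3 reads for 2838c3, 11 and 3 for 6419c5, and 8 and 1 for 6499c4. Again no G-1 library reached any vehicle library, and the summed reads gave a ratio of 0.255 (0.0949 to 0.591). Its host Eif4a2 had ratios of 1.01, 1.01 and 0.897, and Snord2, the box C/D RNA in the same host, had 6 and 12, 6 and 7, and 8 and 4 reads, which overlap between groups. All 164 RefSeq bases of Snora81 lie in an annotated Eif4a2 exon, so its reads too may come from a host transcript. The log2 difference of Snora81 was -1.57 with an SE of 0.14 (adjusted p = 0.0267 by limma). Counting error alone gives the log2 ratio of its reads an SE of 0.67.

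The SE of the FPKM fit lay under the counting error for most members. Among the 23 members with at least 30 reads, 22 had reads in every library, and in 18 of these the SE of the fit was smaller than the SE that counting gives to the log2 ratio of reads. The median SE was 0.28 in the fit and 0.43 from counting. The fit adds 1 to the FPKM before the log, which shrinks differences at low levels. These SEs are therefore not on the same scale. A fit of the reads themselves, in which each gene is weighted by its counts (limma-voom), called 0 of 52 members with at least 10 reads, against 0.911% of all 12954 genes. Of the 52, 7 had an unadjusted p under 0.05, against 12.9% of all genes, and the smallest adjusted p was 0.206 (Snora81). Snord12 had an adjusted p of 0.245 there, with a log2 difference of -0.91 and an SE of 0.35. The planned version of that fit, with at least 60 reads, called 0 of 7 members for G-1, where 1.56% of 11223 genes were called and 14.0% had an unadjusted p under 0.05, against 3 of the 7.

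Within a line, 1 to 8 of the same 23 members differed beyond counting error. In 2838c3 the 95% counting interval of G-1 over vehicle lay off 1 for 4 of 23 (above for Snord83b, below for Snord12, Snord47 and Snora81), against 28.6% of all genes with at least 30 reads. In 6419c5 it lay above 1 for Snord100 and below 1 for none, against 15.7%. In 6499c4 it lay above 1 for Snord49a, Snord72, Snord104, Snora61 and Snora68 and below 1 for Snord96a, Snora16a and Snora64, 8 of 23 against 33.9%. No member had an interval off 1 in more than 1 line, and the members of a line share their library pair.

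**Figure D4:**
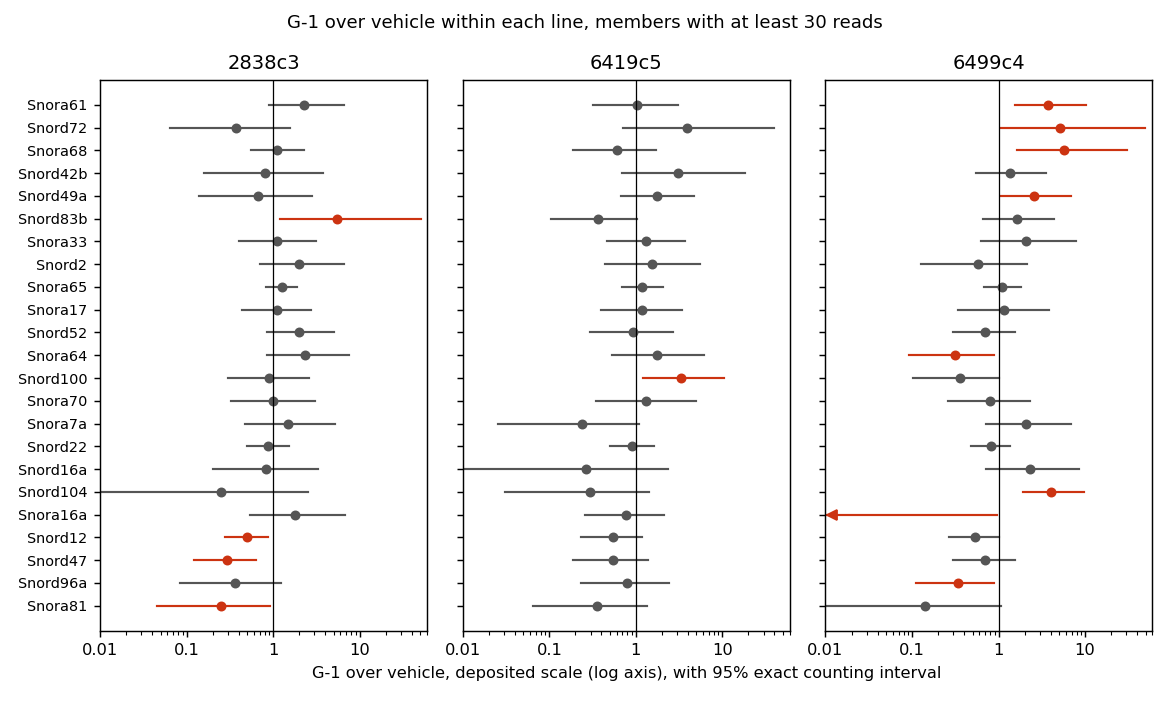
G-1 over vehicle in each line for the 23 members with at least 30 reads, on the deposited scale (log axis), with 95% exact counting intervals; red intervals do not include 1, an arrow marks 0 reads with G-1, intervals end at the limits of the axis, and genes are ordered by their mean log2 difference. Snord12 and Snora81 lie below 1 in all 3 lines, and 8 intervals lie off 1 in 6499c4.

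Of the 23 members, 4 were higher with G-1 in all 3 lines and 5 were lower in all 3, where 15.1% and 16.8% of all genes with at least 30 reads were. All 4 higher members, Snora17, Snora33, Snora61 and Snora65, were of the box H/ACA class. Beside Snord12 and Snora81, the lower ones were Snord22, Snord47 and Snord96a. Among the 65 tested members, 8 were higher and 8 lower in all 3 lines, against 15.4% and 17.5% of tested genes. There the higher ones included box C/D genes, such as Snord68. Snord47 had 31 and 9 reads for 2838c3, 17 and 7 for 6419c5, and 18 and 11 for 6499c4. Its lowest vehicle value on the FPKM scale, 30.2, lay above its highest G-1 value, 21.1, so the groups did not overlap, while Gas5 had ratios of 0.8655, 1.00 and 1.07. Snord47 had a log2 difference of -1.02 with an SE of 0.20, which did not pass (adjusted p = 0.271 by limma).

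Snord96a, in the ribosomal gene Rack1, had 11 and 4, 10 and 6, and 20 and 6 reads, a summed ratio of 0.441 (0.231 to 0.803). Its log2 difference of -1.03 (SE 0.20) did not pass either (adjusted p = 0.271 by limma). Snora61, in the non-coding gene Snhg12, had 7 and 16, 9 and 7, and 7 and 23 reads, a summed ratio of 2.26 (1.34 to 3.91). In 6419c5 its ratio was 1.02, and the log2 difference was 1.00 with an SE of 0.28 (adjusted p = 0.363 by limma). Snord47, Snord96a and Snora61 also lie wholly in annotated host exons (65, 77 and 62 RefSeq bases), so their reads may come from host transcripts. Summed over lines, the counting interval lay off 1 for 6 of the 23 members, against 35.8% of all genes with at least 30 reads. That share is not matched for reads. The interval lay below 1 for Snord12, Snord47, Snord96a and Snora81, and above 1 for Snora61 and Snord104.

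The 2 members with the most reads differed little between treatments. Snora65 had 44 and 55, 31 and 28, and 35 and 34 reads, ratios of 1.25, 1.185 and 1.11 on the deposited scale, beside 1.19, 1.10 and 1.13 for its host Rpl12. Its log2 difference was 0.23 (SE 0.07, adjusted p = 0.363 by limma), and the interval of the summed ratio was 0.919 to 1.57. Snord22 had 30 and 26, 32 and 22, and 38 and 27 reads, and the interval of its summed ratio was 0.620 to 1.155.

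Snord104 went opposite ways in the lines. It had 4 and 1 reads in 2838c3 and 9 and 2 in 6419c5, but 9 and 32 in 6499c4. The ratio in 6499c4 was 4.06 (1.89 to 9.67), and those of 2838c3 (0.251) and 6419c5 (0.292) had intervals that include 1. Fitted without 6499c4, Snord104 was called lower with G-1, by a log2 difference of -1.55 (SE 0.14, adjusted p = 0.0171 by limma). That call rests on the few reads of 2838c3 and 6419c5. Even over all 3 lines, counting error alone gave the log2 ratio of Snord104 reads an SE of 0.68. In the G-1 library of 6499c4 Rmrp and Rpph1, Snord70 (10 reads), Snord49b (14 reads, 2 with vehicle) and Snord8 were also at their highest, and their part in the result of Snord104 was not tested. Members in introns alone together had 91 reads with vehicle and 133 with G-1 in this line, a ratio of 1.67 (1.27 to 2.20), against 1.04 in 2838c3 and 0.761 in 6419c5. Members that overlap an exon had ratios of 0.921, 0.992 and 0.980 in 2838c3, 6419c5 and 6499c4.

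The class sums showed no common direction with G-1. Box C/D genes had 225 reads with vehicle and 177 with G-1 for 2838c3, 193 and 145 for 6419c5, and 281 and 294 for 6499c4, or ratios of 0.789 (0.644 to 0.965), 0.986 (0.789 to 1.23) and 1.195 (1.01 to 1.41) on the deposited scale. Without Snord104 the ratio in 6499c4 was 1.10 and its interval (0.925 to 1.31) included 1. The geometric mean of the 3 box C/D ratios was 0.976, and the log2 SD over the 3 lines was 0.30. Box H/ACA ratios were 1.15, 0.842 and 1.13, with a geometric mean of 1.03 and a log2 SD of 0.25. The lines thus differed among themselves by more than the mean departed from 1.

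Between lines, a smaller share of the members than of all genes passed the test, but the shares are not matched for reads. Of the 65 members tested, 42 had under 30 reads in all. Whether they differ less between lines than genes with as many reads was not tested. In 6419c5 against 2838c3, 8 of 65 members were called (12.3%) where 51.5% of all genes were; 2 were higher (26.2% of all genes) and 6 lower (25.3%). In 6499c4 against 2838c3 there were 15 (23.1%, against 55.6%), 10 higher (26.6%) and 5 lower (28.9%). In 6499c4 against 6419c5 there were 14 (21.5%, against 45.0%), 7 higher (21.3%) and 7 lower (23.7%). The median log2 difference of the 65 members was 0.11, 0.13 and 0.22 in these comparisons, against 0.00058, -0.0051 and 0.0060 for all genes. In the weighted fit of reads, 0, 4 and 2 of 52 members passed, against 51.0%, 56.8% and 46.4% of all genes, and with at least 60 reads 0 of 7 in each (also at an unadjusted p under 0.05), against 56.3%, 61.8% and 50.9%. That fit differs in model, scale and filter, and called members with under 10 reads, such as Snord88c and Snora62, were not tested in it. At an unadjusted p under 0.05 it had 3, 5 and 6 of the 52, against 7222, 7892 and 6856 of all 12954 genes.

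In the FPKM fit, the calls of 6499c4 against 2838c3 split by class. The 10 members called higher were all box C/D (Snord4a, Snord35a, Snord42b, Snord49a, Snord68, Snord70, Snord87, Snord88c, Snord95 and Snord104). Of the 5 called lower, 4 were box H/ACA (Snora17, Snora65, Snora74a and Snora81, with Snord12 as the fifth). Snord70 and Snord88c, with 0 reads in the other lines, and Snord4a, with 1, reached the level filter only through 6499c4. That is the line in which they were called higher, so the split is no test of the classes. Other fits did not give the same split: the weighted fit of reads called Snord35a, Snord70, Snord104 and the box H/ACA gene Snora23 higher (adjusted p = 0.04055 for Snora23 by limma-voom) and no member lower. Without 6419c5 Snora23 was also among the 14 called higher in the FPKM fit. It had 0 and 0, 2 and 0, and 1 and 8 reads, so that the call rests on the G-1 library of 6499c4. Snord87, in the non-coding gene Snhg6, had 3 and 4 reads for 2838c3, 2 and 1 for 6419c5, and 9 and 8 for 6499c4. Both 6499c4 libraries lay above the other 4, with a log2 difference from 2838c3 of 1.15 (SE 0.19, adjusted p = 0.00179 by limma) and a counting interval for the ratio of 0.953 to 6.89. Snord35a, in an intron of the ribosomal protein gene Rpl13a, had 2 and 0, 1 and 0, and 7 and 5 reads. It stayed called in the weighted fit of reads against both other lines (adjusted p = 0.0360 and 0.0463 by limma-voom), with a ratio to 2838c3 of 5.97 (1.33 to 54.9).

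Snord104 was higher in 6499c4 than in 2838c3, with a log2 difference of 2.69 (SE 0.75, adjusted p = 0.0183 by limma, 0.0109 by limma-voom). Of its 41 reads in 6499c4, 32 came from the G-1 library, and in vehicle libraries alone it had 9 reads there and 4 in 2838c3. Snord70 and Snord88c had 0 reads in all 4 libraries of the other lines, so no fold change is given: Snord70 had 11 reads in 6499c4, 10 of them in the G-1 library, and Snord88c had 3 and 2. Snord49a, which shares the non-coding host 2410006H16Rik with Snord49b and Snord65, had 6 and 4 reads for 2838c3, 9 and 12 for 6419c5, and 8 and 18 for 6499c4. It was called higher in both lines than in 2838c3, by 1.44 (SE 0.36, adjusted p = 0.0123 by limma) and 1.21 (SE 0.36, adjusted p = 0.0231). Its FPKM in 2838c3 lay below all 4 libraries of the other lines.

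Among the box H/ACA genes, Snora65 was lower in 6499c4 than in 2838c3, with a log2 difference of -0.50 (SE 0.08, adjusted p = 0.00144 by limma) and a ratio of reads of 0.694 (0.502 to 0.953). Its FPKM was highest in the G-1 library of 2838c3, at 54.6, and lowest in the vehicle library of 6499c4, at 32.4. Snora17, in the non-coding gene Snhg7, had 11 and 12, 9 and 8, and 7 and 7 reads. Its levels in 6499c4 lay below the other 4 libraries, with a log2 difference from 2838c3 of -0.64 (SE 0.11, adjusted p = 0.00198 by limma), and its counting interval of 0.288 to 1.23 includes 1.

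In 6419c5 against 2838c3, Snord22 and Snord49a were called higher and 6 members lower. Snord12 had a log2 difference of -0.40 (SE 0.08, adjusted p = 0.00391 by limma), with a counting interval of the ratio of 0.490 to 1.19. Snora62, with 5 and 1 reads in 2838c3 and 0 in both libraries of 6419c5, and Snora28, with 13 and 2 against 0 and 1, rest on few reads, and the lengths of both in the table were not those of RefSeq. Against 6419c5, Snora16a was lower in 6499c4, with 12 and 7 reads against 6 and 0 (log2 difference -2.29, SE 0.63, adjusted p = 0.0212 by limma and 0.0177 by limma-voom). Its 0 reads stand in the G-1 library of 6499c4.

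The proteins that build these particles showed no call with G-1. None of 5 box C/D core protein genes (fibrillarin Fbl, the scaffold proteins Nop56 and Nop58, and Nhp2l1 and Rrp9) passed, with log2 differences from -0.09 for Nop56 (SE 0.06) to 0.06 for Nhp2l1 (SE 0.10). None of 4 box H/ACA core genes passed, the pseudouridine synthase Dkc1 being at -0.16 (SE 0.07, adjusted p = 0.485 by limma) and Nhp2 at 0.15 (SE 0.08). Of 21 assembly and maturation genes, 0 passed, with 6 lower and 1 higher in all 3 lines and a median of -0.06, beside 17.5% and 15.4% of all tested genes. The ATPase gene Ruvbl1 was at -0.20 (SE 0.06, adjusted p = 0.373 by limma) and Znhit3 at -0.26 (SE 0.09, adjusted p = 0.418). At an unadjusted p under 0.05 stood 0 of the 5, 1 of the 4 and 3 of the 21. Over all genes that share was 10.1%. Between lines, 6 of the 21 assembly genes were called higher and 7 lower in 6419c5 against 2838c3 (26.2% and 25.3% of all genes). They numbered 4 and 8 in 6499c4 against 2838c3 (26.6% and 28.9%), and 3 and 6 in 6499c4 against 6419c5 (21.3% and 23.7%).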

How the data were processed

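The authors deposited 1 table of FPKM values for 24421 gene symbols in 6 libraries. The submitters' processing notes list STAR and DESeq2 without role or version. The sources used here give no genome build, annotation, strandedness or counting rule. Within a row and a library the deposited FPKM values are whole multiples of a step (tolerance 0.01 reads), which gave whole reads for all 15712 genes above 0. Tested on simulated data, this recovery returned the exact reads for 97.8% of 15168 genes without their lengths. RefSeq lengths (GRCm38.p6) matched 71 of the 80 members with reads and 3 more after a common divisor. For the other 6 (Snora28, Snora62, Snord14a, Snord35b, Snord53 and Snord58b) reads may be too low by a common factor. Spreadsheet software had altered 27 gene names into dates, and 2 names occurred in duplicate.

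Values were analysed as log2(FPKM + 1) with limma 3.58.1 (R 4.3.3) over the 10748 genes that averaged 1 FPKM or more, which understates changes of low genes. G-1 was compared with cell line as block and lines with treatment as covariate, two-sided, with Benjamini-Hochberg adjustment and a threshold of 0.05. Libraries are paired because both come from 1 line, and after centring the correlations within lines were 0.906, 0.871 and 0.882. In simulated data for G-1, with 10748 genes, 53.7% of genes changed 1.5-fold, 91% changed 2-fold and 98.5% changed 4-fold were found, with 14 calls among unchanged genes. The changed genes were drawn from all 10748, whereas 42 of the 65 members tested had under 30 reads. These shares therefore cannot be read as those for the members. The simulation also gave every gene the same fixed spread beyond counting and the same change in each line. Its shares may thus be too high for the other genes as well. Intervals of ratios and shares are exact binomial (95%, SciPy 1.17.1), those of RPM are Poisson, and all cover counting error only. Host genes and exons come from GENCODE M21, and from RefSeq where no GENCODE host had the name in the table. Of the 110 members, 109 matched RefSeq and 108 matched GENCODE by symbol.

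The members and lists were chosen with earlier results of these data known. Genes named are those called (at most 10 per comparison), the 8 most-read of each class, those with at least 30 reads and 1 sign in all lines, and those that mark a line. Snora23, Snora30, Snora44, Snord2, Snord8, Snord32a, Snord33, Snord34, Snord49b, Snord64, Snord65, Snord72, Snord118, Rmrp and Rpph1 were named after their values were seen. The alternatives were other pseudocounts, filters and scalings, limma-voom on the recovered reads, no variance trend, no block and each line left out.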

Additional observations from a re-analysis of the deposited data

Results flagged for a closer look

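The summed box C/D reads moved in opposite directions with G-1 in 2 lines. The ratio of G-1 to vehicle was 0.7889 in 2838c3, where the 95% counting interval (0.644 to 0.965) lay below 1, and 1.195 in 6499c4, where it (1.01 to 1.41) lay above 1. In 6419c5 it was 0.9858. With 1 library per line and treatment, the difference was not tested. Snord104 had 9 reads with vehicle and 32 with G-1 in 6499c4, and without it the ratios were 0.799 (0.651 to 0.978), 1.02 and 1.10 (0.925 to 1.31), so that the interval of 6499c4 included 1. Rmrp and Rpph1 were also at their highest in that G-1 library, and its part in the difference was not tested.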

How the results depend on the processing

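The counts of called members depended on the processing. For G-1 against vehicle (2 members, 3 of all genes), the members' count was 1 with a pseudocount of 0.1, a mean of at least 5 FPKM or at least 60 reads, and 0 without a level filter, by limma-voom, with reads scaled to read totals and without a variance trend. It lay between 0 and 8 with 1 line left out. The count over all genes was 1 with a pseudocount of 0.1, 0 without a level filter or a variance trend, 6 at 5 FPKM and at 60 reads, 175 by limma-voom and 55 with read totals, and 0 to 11 with 1 line left out. Without the replicate block of cell line, both counts were 0. Limma-voom with at least 10 reads, added after seeing the data, called 0 members and 118 genes. Leaving out 6419c5 ended the calls of Snord12 and Snora81, and leaving out 2838c3 ended that of Snora81.

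For 6419c5 against 2838c3 (8 members) the count was 4 without a level filter, 5 at 5 FPKM, 3 at 60 reads, 0 by both limma-voom fits, 1 with read totals and 23 without 6499c4. For 6499c4 against 2838c3 (15) it was 9 without a filter and at 5 FPKM, 2 at 60 reads, 0 by limma-voom, 1 with read totals, 4 in the added fit and 18 without 6419c5. For 6499c4 against 6419c5 (14) it was 6 at 5 FPKM, 1 at 60 reads, 0 by limma-voom, 2 with read totals and in the added fit, and 20 without 2838c3. In the main fits 51.5%, 55.6% and 45.0% of all genes were called in these comparisons. By limma-voom it was 56.3%, 61.8% and 50.9%, and in the added fit 51.0%, 56.8% and 46.4%. Shares of all genes under the other settings are not given here. The counts of members therefore show only that their calls depended on the processing. Fewer members are tested at 5 FPKM or 60 reads. The cause of the other changes was not tested.

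With 1 line left out, the geometric mean ratio with G-1 was 0.882 to 1.085 for box C/D and 0.974 to 1.139 for box H/ACA. It was 0.818 for box H/ACA without members in annotated exons. The median number of members with reads (57) was 38 at 3 reads and 10.5 at 10 reads. Among single members, 678 of the alternative values kept direction and call, 98 lost the call, 10 gained it and 15 changed sign. For G-1, the sign of the log2 difference changed when 1 line was left out for 8 members, whose values then ranged from -0.31 to 0.42 (Snord52), -0.77 to 0.74 (Snord100), -0.35 to 1.41 (Snord83b), -1.55 to 0.22 (Snord104), -0.26 to 1.18 (Snora68), -0.38 to 0.92 (Snora64), -0.14 to 0.17 (Snora70) and -0.62 to 0.72 (Snora7a). It also changed for Snord104 with read totals (0.089) and in the added fit (0.61), and for Snora7a in the added fit (0.093). For 6419c5 against 2838c3, Snora7a had 0.0067 with read totals and 0.014 in the added fit. A planned quasi-likelihood test of counts was not run, because the deposited unit is FPKM. With 2270 reads over 110 genes, depth limits every value: the median member with reads had 17.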

Other observations

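In Rpl13a, a ribosomal protein gene, Snord32a, Snord33, Snord34 and Snord35a together had 24 reads with vehicle and 6 with G-1 for 2838c3, 5 and 6 for 6419c5, and 23 and 9 for 6499c4. Rpl13a itself had 7380 and 9127, 8702 and 6722, and 10099 and 9042 reads. In Snhg12, a non-coding gene, Snora16a, Snora44, Snora61 and Snord99 together had 23 and 30, 31 and 25, and 19 and 26 reads, and the gene had 173 and 155, 148 and 139, and 133 and 142. Snord99 and Snora16a were at 0 in the G-1 library of 6499c4, where Snora61 had 23 reads.

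Of 14 longer genes with more than 1 detected member, the most reads lay in Snhg12 (154 over its 4 members) and Rps12 (110 over Snora33 and Snord100). Other short non-coding genes were sparser: of 1193 in the table, among them microRNA and Scarna genes, 118 had reads, 38 reached the level filter, and 0 passed the limma test for G-1 (4 with an unadjusted p under 0.05, where 10.1% of all genes had one).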
